A study of Homo sapiens with 20 samples.

Results

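The genes described here are the classical zinc finger genes with the lowest numbers in their naming series, ZNF2 to ZNF99. They were taken as every measured gene whose symbol on the array platform is ZNF, a number of 1 or 2 digits and at most 1 letter, and 51 of the 21448 transcript clusters tested met this rule. A transcript cluster is the set of probes that stands for 1 gene on the array. The samples were polysomal RNA of BE(2)-C, a MYCN-amplified human neuroblastoma cell line, hybridized to Affymetrix Clariom S arrays. Cells had been transfected for 48 h with siRNA-1 or siRNA-2, which target the long noncoding RNA lncNB1, or with control siRNA, and given cycloheximide, which stalls ribosomes where they are, before their lysates were separated on a sucrose gradient. Heavy polysomes hold mRNA loaded with many ribosomes and light polysomes mRNA loaded with few. The 20 arrays fell into 6 groups, with 3 heavy and 3 light arrays for siRNA-1, 3 heavy and 3 light arrays for siRNA-2, and 4 heavy and 4 light arrays for control siRNA. The labels number the replicates but do not say whether they came from separate cultures, so the p-values speak only for the spread among the arrays at hand, which may be technical. The experiment used a single cell line, and the level of lncNB1 itself was not analysed here.

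Zinc finger proteins of this class bind DNA through a row of short fingers, each folded around a zinc ion, and make up the largest family of human transcription factors. Many carry a KRAB domain at the N terminus, which recruits the corepressor TRIM28 and, through it, enzymes that compact chromatin. KRAB zinc finger genes lie in clusters that grew by gene duplication, above all on chromosome 19, and many of their products bind and silence transposable elements. A SCAN domain, found in a smaller group, lets these proteins pair with one another. Of the 51 genes, 40 were listed as KRAB genes and 3 as SCAN genes (ZNF18, ZNF24 and ZNF75D, of which ZNF18 and ZNF75D are also KRAB genes). A further 8 (ZNF16, ZNF22, ZNF32, ZNF35, ZNF48, ZNF70, ZNF76 and ZNF80) were listed as having neither domain, and ZNF71 and ZNF83 were not classed. On chromosome 19 lay 20 of the 51, on chromosome 10 lay 6 and on chromosome 16 lay 4.

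All values are log2 signals from the robust multi-array average method (RMA), so a difference of 1 is a doubling of a gene's share of the signal on its array. Mean signals over the 20 arrays ran from 3.70 for ZNF99 to 9.94 for ZNF19, with a median of 7.34, and 4 genes (ZNF2, ZNF10, ZNF14 and ZNF99) had a mean under 5. Brightness differs between probes, so levels are compared only between arrays of the same gene. The 8 neuroblastoma markers measured had mean signals from 7.30 for TH to 12.2 for MYCN. Markers of other cell types had 4.12 for PTPRC (leukocytes), 5.66 for EPCAM (epithelium), 5.83 and 7.36 for S100B and SOX10 (Schwann cells), and 4.75 for FN1 to 8.33 for COL1A2 among 4 mesenchymal genes. The ranges overlap, and since probes differ in brightness these values give no order of the cell types. The fractions of replicate 1 stood closer together than those of later replicates: the slope of the heavy minus light difference on that of the other transfections was 0.527 to 0.727 for replicate 1 and 0.90 to 1.38 for the others. The counts that rest on these arrays are therefore given with and without replicate 1.

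The first question was in which fraction the zinc finger mRNAs had the larger share of the signal. Each array took 100 ng, so the values do not give amounts along the gradient. Most had a larger share in light than in heavy polysomes. On the mean of the 3 siRNA conditions 31 of the 51 genes were lower in heavy polysomes, 2 were higher and 18 did not pass (limma on 10 differences of same-numbered heavy and light arrays, Benjamini-Hochberg adjusted p under 0.05 over all clusters). That a shared number marks 1 transfection was assumed, since the labels do not state it, and with all 20 arrays in 1 fit and no such pairing 33 genes were lower and 2 higher. In the fit on differences the shares were 60.8% lower and 3.92% higher, against 20.7% lower and 22.4% higher among all clusters tested. The median difference of the 51 genes was -0.31, against -0.02 for all clusters, and 46 of the 51 estimates lay below 0. Among 431 other genes named ZNF with 3 digits, 225 (52.2%) were lower and 31 higher, with a median of -0.22. The difference between the 2 sets was not tested. Without replicate 1 in any group, 33 of the 51 were lower and 2 higher, and the 33 calls reported were among them.

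**Figure D1:**
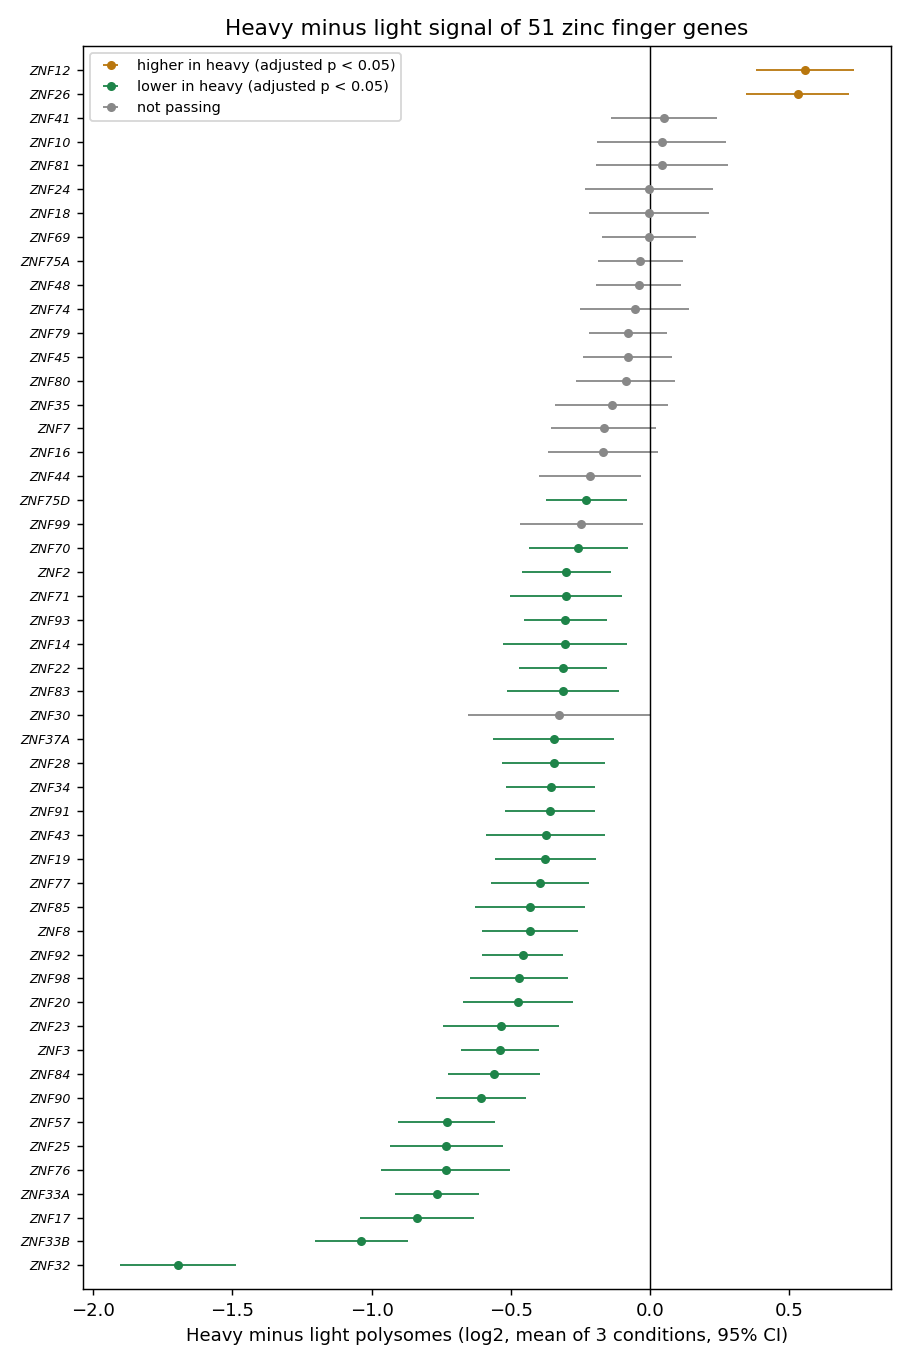
Heavy minus light difference (log2, mean of siRNA-1, siRNA-2 and control) of each of the 51 genes, with 95% confidence intervals and the genes sorted by value. ZNF32 lies lowest at -1.70, ZNF12 and ZNF26 highest at 0.56 and 0.53, and 46 of the 51 points are left of 0.

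ZNF32, a gene of chromosome 10 without a KRAB or SCAN domain, had the lowest difference. Its heavy signal was 5.81, 5.73 and 5.67 with siRNA-1, 5.84, 5.83 and 5.66 with siRNA-2, and 6.08, 5.91, 5.41 and 5.93 in control cells. Its light signal was 7.01, 7.36 and 7.96 with siRNA-1, 7.41, 7.57 and 7.15 with siRNA-2, and 7.50, 7.75, 7.26 and 7.95 in control cells. The fractions did not overlap in any condition, whereas the 3 conditions overlapped within each fraction. Heavy minus light was -1.70 on the mean of conditions (SE 0.10, limma adjusted p = 4.14e-08), with -1.70 for siRNA-1, -1.60 for siRNA-2 and -1.78 for control cells.

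The paralogs ZNF33B and ZNF33A, KRAB genes of chromosome 10, followed with -1.04 (SE 0.08, limma adjusted p = 1.68e-07) and -0.77 (SE 0.07, adjusted p = 7.42e-07). Their differences were below 0 in each of the 10 transfections, between -1.38 and -0.64 for ZNF33B and between -1.06 and -0.48 for ZNF33A. ZNF17, a KRAB gene of chromosome 19, had -0.84 (SE 0.10, limma adjusted p = 4.92e-06), with single transfections between -1.48 and -0.36. The smallest ZNF17 differences, -0.36 and -0.43, came from replicate 1 of siRNA-1 and siRNA-2. ZNF76, a relative of the transcription activator ZNF143, had -0.73 (SE 0.11, limma adjusted p = 5.29e-05), and so had the KRAB genes ZNF25 (SE 0.10, adjusted p = 1.65e-05) and ZNF57 (SE 0.08, adjusted p = 4.08e-06). ZNF90, in the large KRAB cluster of chromosome 19, had -0.61 (SE 0.08, limma adjusted p = 1.07e-05). These 8 genes kept their calls in all 17 alternative settings.

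ZNF12 and ZNF26, both KRAB genes, lay the other way. ZNF12 had a heavy signal of 8.39, 8.66 and 8.63 with siRNA-1, 7.80, 7.91 and 7.97 with siRNA-2, and 7.68, 7.84, 8.07 and 8.11 in control cells. Its light signal was 7.61, 7.79 and 7.48 with siRNA-1, 7.80, 7.27 and 7.85 with siRNA-2, and 7.35, 7.42, 7.68 and 7.34 in control cells. The fractions separated fully with siRNA-1 and overlapped with siRNA-2. The mean difference was 0.56 for ZNF12 (SE 0.08, limma adjusted p = 4.99e-05) and 0.53 for ZNF26 (SE 0.09, adjusted p = 0.000126). ZNF26 was the 1 gene of the 51 whose difference was above 0 in all 10 transfections, from 0.10 to 0.95, and 17 genes were below 0 in all 10. How many of all clusters kept 1 sign in all 10 was not counted.

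By domain, 25 of the 40 KRAB genes were lower in heavy polysomes and 2 higher (median -0.35), as were 4 of the 8 genes with neither domain (median -0.21), and 1 of the 3 SCAN genes (ZNF75D, -0.23, SE 0.07, limma adjusted p = 0.0131). ZNF75D lost its call without siRNA-2 replicate 3 (adjusted p = 0.0507). ZNF24 and ZNF18, the other SCAN genes, had -0.00 and -0.00, with 95% intervals of -0.23 to 0.23 and -0.22 to 0.21. By position, all 20 genes of chromosome 19 had estimates below 0 and 15 passed (median -0.35), against 16 lower and 2 higher among the 31 genes elsewhere (median -0.23). Without replicate 1 in any group, 26 KRAB genes, 5 genes with neither domain and 1 SCAN gene were lower, as were 16 genes of chromosome 19 and 17 elsewhere. ZNF91 and ZNF93, KRAB genes of chromosome 19 known for binding SVA and LINE retrotransposons, were lower, with -0.36 (SE 0.08, limma adjusted p = 0.00121) and -0.30 (SE 0.07, adjusted p = 0.00217). ZNF19 had -0.38 (SE 0.08, limma adjusted p = 0.00189). ZNF10, from which the KRAB domain of many synthetic repressors was taken, had 0.04 (SE 0.11, adjusted p = 0.788) and ZNF75A, a paralog of ZNF75D, had -0.03 (SE 0.07, adjusted p = 0.739).

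The pattern was present in each condition taken alone. With siRNA-1, 13 of the 51 genes (25.5%) were lower in heavy polysomes and 2 higher, against 12.1% and 16% of all clusters, and the median was -0.25. With siRNA-2, 15 (29.4%) were lower and 0 higher (limma), against 10.6% and 11.5% of all clusters, with a median of -0.33. In control cells 23 (45.1%) were lower and 2 higher, against 12.8% and 14.5% of all clusters, with a median of -0.33. The control estimate rests on 4 transfections and each siRNA estimate on 3. Without replicate 1 in any group, 18 genes were lower and 1 higher with siRNA-1, 15 lower and 0 higher with siRNA-2 (limma), and 24 lower and 2 higher in control cells. The genes lower in each of the 3 conditions were ZNF3, ZNF17, ZNF32, ZNF33A, ZNF33B, ZNF57, ZNF76, ZNF84, ZNF90 and ZNF92, 10 in all. The share of all clusters lower in each of the 3 was not counted. By transfection the median of the 51 genes was lowest in control replicate 3 (-0.54) and siRNA-2 replicate 3 (-0.52) and highest in siRNA-1 replicate 1 (-0.09). The siRNA-2 count was 7, 7 and 6 without siRNA-2 replicate 1, 2 or 3, and the control count of 25 calls was 15 without control replicate 4.

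The second question was whether lncNB1 siRNAs changed these mRNAs in either fraction. With siRNA-1 against control, 9 of the 51 genes (17.6%) were higher in heavy polysomes and 0 were lower (limma), against 5.68% higher and 3.23% lower among all clusters. In light polysomes 9 (17.6%) were higher and 0 lower, against 5.27% and 6.32% of all clusters. An unadjusted p under 0.05 was found for 18 of the 51 genes in heavy polysomes, against 4552 of all 21448 clusters, and for 20 in light polysomes, against 5056. The median difference was 0.20 in heavy and 0.18 in light polysomes, against 0.00 and 0.00 over all clusters. ZNF17, ZNF25, ZNF28, ZNF33A and ZNF33B passed in both fractions, and 13 genes passed in at least 1. How many of all clusters passed in both or in at least 1 was not counted. The 3-digit ZNF genes gave 98 higher (22.7%) and 1 lower of 431 in heavy polysomes. In light polysomes they gave 98 higher (22.7%) and 12 lower. Without replicate 1 in any group the count was 8 in heavy and 7 in light polysomes, all of them among the calls reported.

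**Figure D2:**
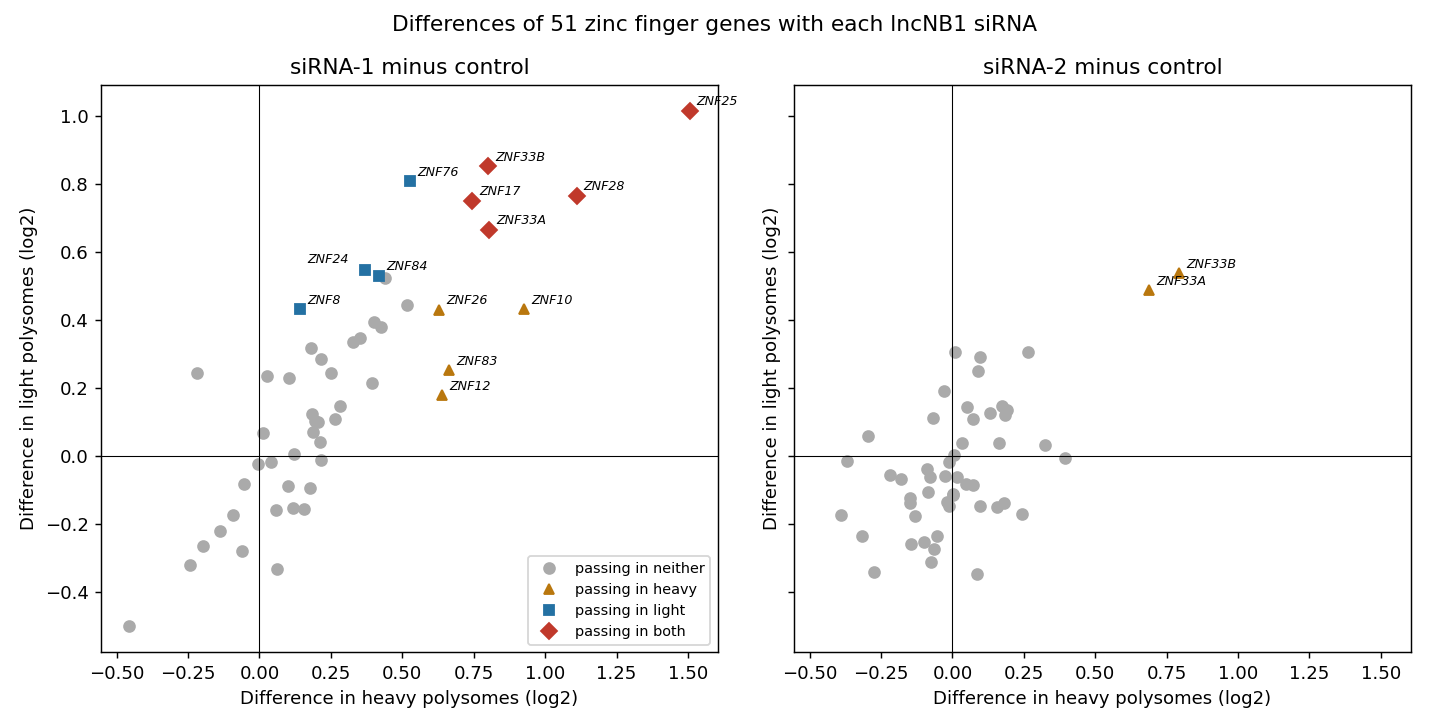
Difference from control in heavy polysomes (horizontal, log2) against that in light polysomes (vertical, log2) for the 51 genes, with siRNA-1 on the left and siRNA-2 on the right. With siRNA-1, 5 genes passed in both fractions and ZNF25 lies farthest out at 1.51 and 1.02, whereas with siRNA-2 ZNF33A and ZNF33B stand apart at the upper right.

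ZNF25, a KRAB gene of chromosome 10, had the largest difference in both fractions. Its heavy signal was 6.98, 6.87 and 6.77 with siRNA-1, 5.89, 5.55 and 5.45 with siRNA-2, and 5.88, 5.19, 5.26 and 5.15 in control cells. Its light signal was 6.88, 7.62 and 7.29 with siRNA-1, 6.65, 6.47 and 6.55 with siRNA-2, and 6.31, 6.17, 6.16 and 6.36 in control cells. All siRNA-1 arrays lay above all control arrays in both fractions, and control heavy replicate 1 lay well above the other 3 control heavy arrays. ZNF25 rose by 1.51 in heavy polysomes with siRNA-1 (SE 0.18, 2.84-fold, limma adjusted p = 0.000335) and by 1.02 in light polysomes (SE 0.15, 2.02-fold, adjusted p = 0.000544). With siRNA-2 it had 0.26 (SE 0.18, limma adjusted p = 0.79) and 0.30 (SE 0.15, adjusted p = 0.565).

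ZNF28, a KRAB gene of chromosome 19, had heavy signals of 6.29, 6.67 and 6.42 with siRNA-1, 5.92, 5.84 and 5.48 with siRNA-2, and 5.35, 5.38, 5.22 and 5.45 in control cells. In light polysomes it had 6.48, 7.12 and 6.53 with siRNA-1, 5.90, 5.76 and 6.15 with siRNA-2, and 6.0, 5.73, 6.03 and 6.03 in control cells. In heavy polysomes siRNA-1 arrays were highest, siRNA-2 arrays lay between and control arrays were lowest, without overlap, whereas in light polysomes siRNA-2 and control arrays overlapped. With siRNA-1, ZNF28 rose by 1.11 in heavy (SE 0.14, limma adjusted p = 0.000535) and 0.77 in light polysomes (SE 0.16, adjusted p = 0.00608). With siRNA-2 it had 0.39 in heavy (SE 0.14, limma adjusted p = 0.366) and -0.01 in light polysomes.

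ZNF17 had heavy signals of 8.48, 8.12 and 8.15 with siRNA-1, 7.71, 7.59 and 7.76 with siRNA-2, and 7.49, 7.46, 7.62 and 7.45 in control cells. Its light signals were 8.84, 9.13 and 9.63 with siRNA-1, 8.14, 8.37 and 8.41 with siRNA-2, and 8.54, 8.39, 8.33 and 8.54 in control cells. The siRNA-1 arrays stood above the others in both fractions, and siRNA-2 and control arrays overlapped in both. With siRNA-1 the gene rose by 0.74 in heavy (SE 0.12, limma adjusted p = 0.00226) and 0.75 in light polysomes (SE 0.16, adjusted p = 0.00663).

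**Figure D3:**
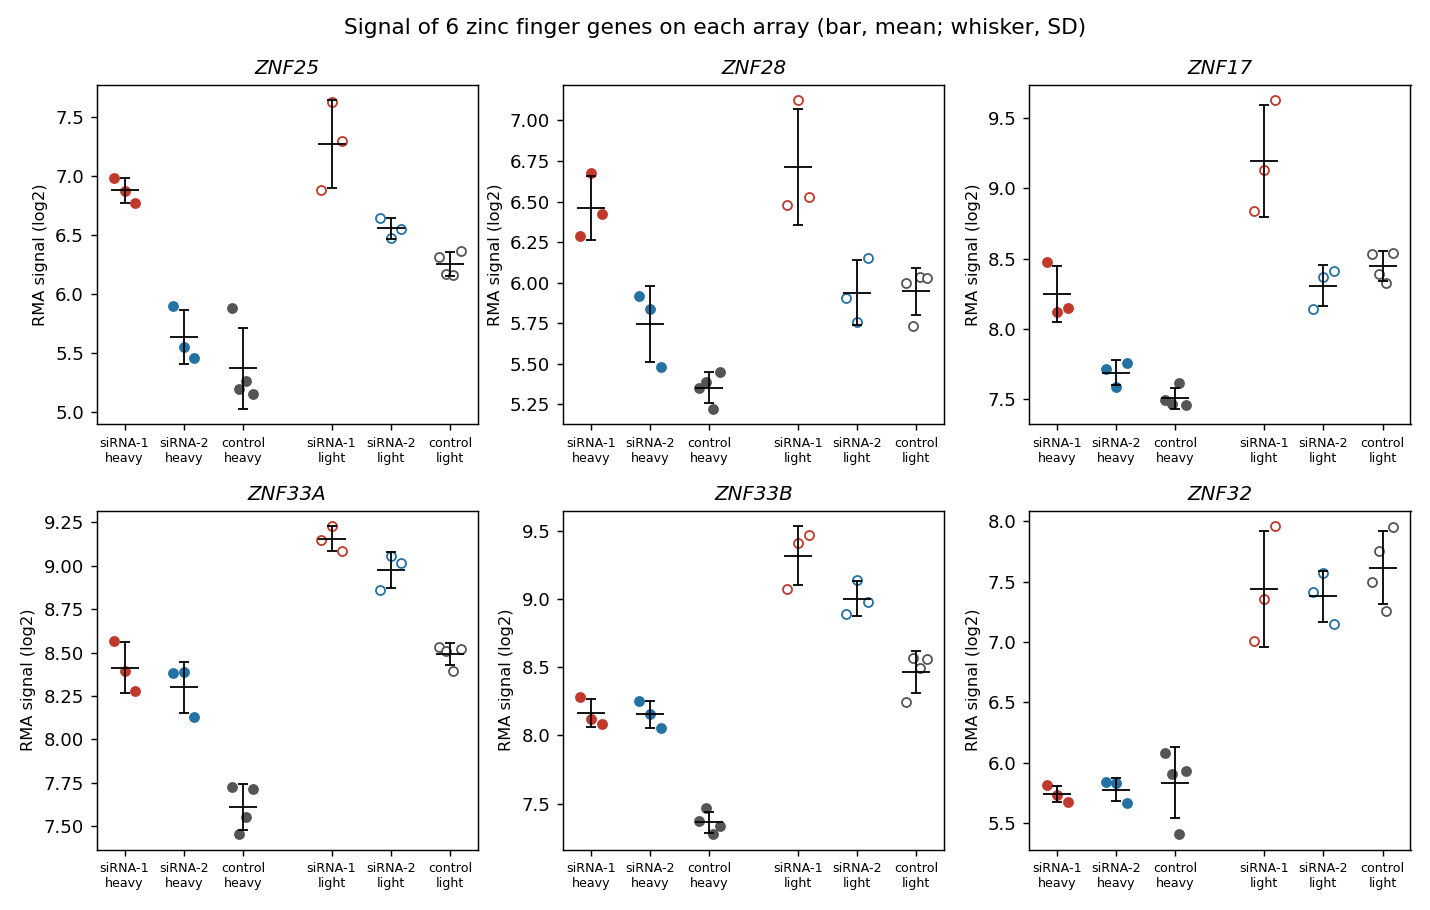
RMA signal (log2) of ZNF25, ZNF28, ZNF17, ZNF33A, ZNF33B and ZNF32 on every array, with siRNA-1 in red, siRNA-2 in blue, control in grey, heavy polysomes as filled and light polysomes as open circles, and bars and whiskers for mean and SD (n = 3, 3 and 4). ZNF25, ZNF28 and ZNF17 stand high with siRNA-1, ZNF33A and ZNF33B with both siRNAs, and ZNF32 separates by fraction and not by siRNA.

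Other genes passed in a single fraction. In heavy polysomes with siRNA-1 the KRAB genes ZNF10, ZNF12 and ZNF26 rose by 0.93 (SE 0.18, limma adjusted p = 0.00643), 0.64 (SE 0.13, adjusted p = 0.00941) and 0.63 (SE 0.15, adjusted p = 0.0181). ZNF10 had heavy signals of 5.76, 5.42 and 4.94 with siRNA-1 against 4.66, 4.19, 4.37 and 4.57 in control cells, a dim signal whose groups did not overlap. ZNF83 had 0.66 (SE 0.19, limma adjusted p = 0.0495), a call lost in 9 of 18 settings, without any 1 of siRNA-1 heavy replicates 1, 2 and 4, siRNA-2 heavy replicates 1, 2 and 3 and control heavy replicates 2, 3 and 4 (adjusted p up to 0.168). ZNF12 lost its call without siRNA-1 replicate 2 (limma adjusted p = 0.0548), and ZNF26 lost its call without siRNA-1 replicate 1 and without replicate 1 in any group (adjusted p up to 0.062). Whether a gene that passed in 1 fraction differed between fractions is the question of the shift test given further on.

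In light polysomes with siRNA-1, ZNF76 rose by 0.81 (SE 0.16, limma adjusted p = 0.00335). Its light signals were 8.03, 8.50 and 8.51 with siRNA-1, 7.63, 7.75 and 7.59 with siRNA-2, and 7.32, 7.61, 7.37 and 7.86 in control cells, and siRNA-1 arrays did not overlap the others. ZNF24, a SCAN gene whose product represses transcription, rose by 0.54 (SE 0.12, limma adjusted p = 0.00648), with light signals of 9.56, 9.65 and 9.60 for siRNA-1 against 9.08, 9.09, 8.90 and 9.17 for control cells. The 3 siRNA-1 arrays lay close together and above the control arrays, though the call was lost with all 20 arrays in 1 fit (limma adjusted p = 0.0713). ZNF84 rose by 0.53 (SE 0.12, limma adjusted p = 0.0082) and ZNF8 by 0.43 (SE 0.13, adjusted p = 0.039). ZNF84 lost its call without replicate 1 in any group (limma adjusted p = 0.0965). ZNF8 lost its call in 7 of 18 settings, among them those without siRNA-1 light replicate 2 or 4, siRNA-2 light replicate 1 or control light replicate 1, 2 or 3 (adjusted p up to 0.139).

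No gene of the 51 passed as lower with siRNA-1 in either fraction in this fit, which had no term for the replicate number. ZNF30 did in heavy polysomes under some alternatives, among them a fit with such a term (replicate block). The lowest estimate in both fractions was that of ZNF30, a KRAB gene of chromosome 19, with -0.46 in heavy (SE 0.18, limma adjusted p = 0.152) and -0.50 in light polysomes (SE 0.23, adjusted p = 0.191). Its heavy signals were 6.52, 6.14 and 5.84 with siRNA-1, 6.33, 6.42 and 5.95 with siRNA-2, and 6.79, 6.82, 6.38 and 6.49 in control cells. Arrays of all 3 conditions were widely spread, and siRNA-1 overlapped control. Without siRNA-1 heavy replicate 1, ZNF30 passed as lower in heavy polysomes (-0.63, limma adjusted p = 0.043).

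With siRNA-2 against control, 2 of the 51 genes (3.92%) were higher in heavy polysomes and 0 lower, against 0.168% and 0.247% of all clusters. In light polysomes 0 were higher or lower (limma), against 0.191% and 0.219% of all clusters, and 5 of the 51 had an unadjusted p under 0.05, against 2102 of all 21448 clusters, which is the background share. The median difference was 0.00 in heavy and -0.06 in light polysomes. Both siRNA comparisons use the same control arrays. The 2 genes were the paralogs ZNF33B and ZNF33A.

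ZNF33B had heavy signals of 8.28, 8.12 and 8.09 with siRNA-1, 8.26, 8.16 and 8.06 with siRNA-2, and 7.37, 7.47, 7.27 and 7.34 in control cells. Its light signals were 9.07, 9.41 and 9.47 with siRNA-1, 8.89, 9.14 and 8.98 with siRNA-2, and 8.24, 8.57, 8.49 and 8.56 in control cells. All siRNA-1 and siRNA-2 arrays lay above all control arrays in both fractions. In heavy polysomes ZNF33B rose by 0.79 with siRNA-2 (SE 0.11, limma adjusted p = 0.00927) and by 0.80 with siRNA-1 (SE 0.11, adjusted p = 0.000952). In light polysomes it rose by 0.85 with siRNA-1 (SE 0.14, limma adjusted p = 0.000828) and had 0.54 with siRNA-2 (SE 0.14, adjusted p = 0.119). The siRNA-2 call in heavy polysomes was lost without siRNA-2 replicate 2 (limma adjusted p = 0.0802).

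ZNF33A had heavy signals of 8.57, 8.39 and 8.28 with siRNA-1, 8.38, 8.39 and 8.13 with siRNA-2, and 7.72, 7.45, 7.55 and 7.71 in control cells. Its light signals were 9.15, 9.23 and 9.09 with siRNA-1, 8.86, 9.05 and 9.02 with siRNA-2, and 8.53, 8.51, 8.40 and 8.52 in control cells. Here too no siRNA array overlapped a control array. ZNF33A rose by 0.69 with siRNA-2 in heavy polysomes (SE 0.13, limma adjusted p = 0.0332), and with siRNA-1 by 0.80 in heavy (SE 0.13, adjusted p = 0.0018) and 0.66 in light polysomes (SE 0.11, adjusted p = 0.00123). With siRNA-2 in light polysomes it had 0.49 (SE 0.11, limma adjusted p = 0.0817). The siRNA-2 call in heavy polysomes was lost in 8 of 18 settings, without any 1 of siRNA-2 replicates 1, 2 and 3, siRNA-1 replicate 2 and control replicates 2, 3 and 4, and without replicate 1 in any group (limma adjusted p up to 0.273). ZNF33A and ZNF33B are closely related in sequence, and how far probes of one also bind the mRNA of the other was not tested.

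ZNF25, ZNF33A, ZNF37A and ZNF33B follow one another on chromosome 10 with 0 other protein-coding genes between them in the RefSeq annotation, and ZNF32 and ZNF22 lie 9 and then 5 genes further on. Their promoters are shown because 3 of the 4 neighbours rose with siRNA-1 and the fourth did not pass. Each sequence is the 250 bases before an annotated RefSeq start on GRCh38.p14, read 5′ to 3′ on the strand of the gene, with capitals for CCAAT or its reverse complement ATTGG, the motif of the CCAAT box. ZNF33A is at chr10:38010425-38010674 on the plus strand, ZNF33B at chr10:42638571-42638820 on the minus strand, ZNF25 at chr10:37976648-37976897 on the minus strand and ZNF37A at chr10:38094087-38094336 on the plus strand.
ZNF33A: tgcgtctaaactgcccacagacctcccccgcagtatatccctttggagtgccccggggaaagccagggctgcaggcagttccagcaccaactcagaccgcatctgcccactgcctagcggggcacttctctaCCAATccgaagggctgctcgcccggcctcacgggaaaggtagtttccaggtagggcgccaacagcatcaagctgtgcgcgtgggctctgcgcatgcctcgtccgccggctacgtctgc
ZNF33B: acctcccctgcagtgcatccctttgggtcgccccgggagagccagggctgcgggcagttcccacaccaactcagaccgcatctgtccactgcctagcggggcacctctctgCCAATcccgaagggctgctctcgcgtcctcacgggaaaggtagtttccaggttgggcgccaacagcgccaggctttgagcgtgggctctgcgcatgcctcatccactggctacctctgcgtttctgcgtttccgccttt
ZNF25: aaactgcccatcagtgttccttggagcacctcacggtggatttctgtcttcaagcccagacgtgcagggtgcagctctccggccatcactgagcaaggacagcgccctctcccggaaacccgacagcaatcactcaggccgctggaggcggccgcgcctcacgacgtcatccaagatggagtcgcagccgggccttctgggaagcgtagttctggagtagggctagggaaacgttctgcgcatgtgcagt
ZNF37A: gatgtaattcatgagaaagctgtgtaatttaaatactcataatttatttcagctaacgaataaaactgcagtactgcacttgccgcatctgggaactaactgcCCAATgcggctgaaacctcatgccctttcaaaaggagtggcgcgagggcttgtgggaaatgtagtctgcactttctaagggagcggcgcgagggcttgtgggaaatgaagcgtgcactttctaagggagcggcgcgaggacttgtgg
In a global alignment the ZNF33A and ZNF33B windows matched at 205 of 228 aligned bases (89.9%). ZNF25 matched ZNF33A at 161 of 202 aligned bases (79.7%), with 96 gap positions against 44 for the ZNF33 pair. These percentages leave gap positions out. Against a second, overlapping ZNF33A window ZNF25 matched at 150 of 219 aligned bases (68.5%). The windows of both annotated ZNF25 starts matched each other at 139 of 207 (67.1%). No CCAAT or ATTGG lies in the ZNF25 window shown, while a second annotated ZNF25 start has 1 match in its window. ZNF37A matched ZNF33A at 144 of 213 aligned bases (67.6%). How far unrelated windows match was not tested, so the ZNF25 and ZNF37A values do not show a shared promoter sequence.

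RefSeq windows were at hand for 42 of the 51 genes, 58 windows in all, of which some overlap. CCAAT on either strand was in 29 of the 58, against 32.01% of 35116 promoter windows of the same length. CCGGAAG, a sequence bound by factors of the ETS family, was in 27.6% of the 58 windows and 8.517% of all windows. CACGTG, the E-box bound by MYC proteins among others, was in 5.17% and 6.345%, and TATAAA, the TATA box, in 0 of 58 and 10.72%. These are counts of letters and say nothing about whether a factor binds.

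Along the chromosome 10 run the siRNA-1 difference in heavy polysomes was 1.51 for ZNF25, 0.80 for ZNF33A, 0.20 for ZNF37A (SE 0.16), 0.80 for ZNF33B, -0.09 for ZNF32 and -0.06 for ZNF22. ZNF37A, which comes between the ZNF33 paralogs in gene order, thus had the smallest value of the 4 neighbours. With siRNA-2 the values were 0.26, 0.69, 0.10, 0.79, -0.06 and -0.22. A second run on chromosome 12, ZNF26 and ZNF84 side by side and ZNF10 with 2 genes between, had 0.63, 0.42 and 0.93 with siRNA-1 in heavy polysomes and 0.07, -0.15 and 0.09 with siRNA-2. All 3 genes of that run passed with siRNA-1 in 1 fraction, ZNF26 and ZNF10 in heavy and ZNF84 in light polysomes, and 0 of them with siRNA-2 in either (limma). ZNF23 and ZNF19 on chromosome 16, and ZNF57 and ZNF77 on chromosome 19, also had 0 protein-coding genes between them. No gene of these pairs passed with siRNA-1 in either fraction.

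**Figure D4:**
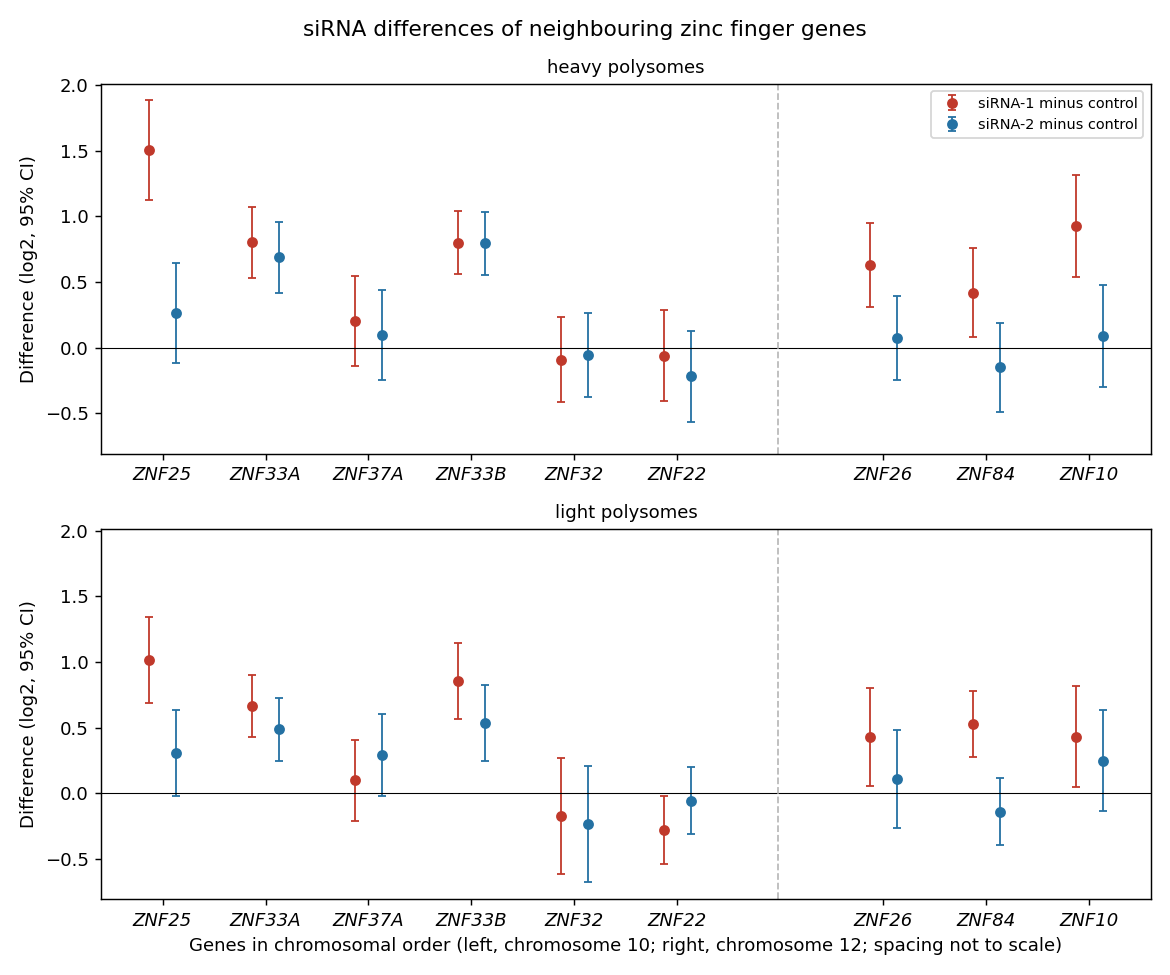
Difference from control (log2, 95% confidence interval) of neighbouring genes on chromosome 10 (left) and chromosome 12 (right), in chromosomal order. Spacing is not to scale, siRNA-1 is in red and siRNA-2 in blue, and heavy polysomes are above light polysomes. ZNF33A and ZNF33B are high with both siRNAs, ZNF25 and the chromosome 12 genes mainly with siRNA-1, and ZNF37A, ZNF32 and ZNF22 lie near 0 in heavy polysomes.

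The siRNAs were then compared with each other, since both target lncNB1. In heavy polysomes 8 of the 51 genes (15.7%) were higher with siRNA-1 than with siRNA-2 and 0 lower, against 5.49% and 3.26% of all clusters, and in light polysomes 11 (21.6%) were higher and 0 lower, against 5.61% and 6.68%. ZNF17, ZNF25, ZNF28 and ZNF75D passed in both fractions. ZNF25 differed by 1.24 in heavy (SE 0.19, 95% interval 0.84 to 1.65, limma adjusted p = 0.00142) and by 0.71 in light polysomes (SE 0.16, adjusted p = 0.00972). ZNF17 differed by 0.89 in light polysomes (SE 0.17, limma adjusted p = 0.00322) and ZNF24 by 0.69 (SE 0.13, adjusted p = 0.00199). Without replicate 1 in any group the counts were 4 and 5, and without 1 array at a time they lay between 3 and 9 in heavy and between 6 and 11 in light polysomes. The heavy count was 3 without siRNA-1 replicate 2 and 5 without siRNA-1 replicate 1 or any 1 of siRNA-2 replicates 1, 2 and 3. The light count was 6 without siRNA-2 replicate 3 and 7 without siRNA-2 replicate 1 or siRNA-1 replicate 2.

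ZNF33A and ZNF33B were not among them, and a p that misses the threshold does not show that the siRNAs acted alike on these genes. In heavy polysomes siRNA-1 minus siRNA-2 was 0.01 for ZNF33B (95% interval -0.25 to 0.26) and 0.11 for ZNF33A (-0.18 to 0.40). In light polysomes it was 0.31 for ZNF33B (0.00 to 0.62) and 0.18 for ZNF33A (-0.08 to 0.43). ZNF75D had heavy signals of 6.50, 6.21 and 5.99 for siRNA-1, 5.85, 5.65 and 5.62 for siRNA-2, and 6.0, 5.95, 5.97 and 6.01 for control cells. Control arrays lay above all siRNA-2 arrays and below siRNA-1 arrays 1 and 2, with siRNA-1 replicate 4 among them, and the siRNA-1 to siRNA-2 difference of 0.52 (SE 0.14, limma adjusted p = 0.0327) passed while neither siRNA passed against control. It was lost in 5 of 18 settings, namely without siRNA-1 array 1, siRNA-1 array 2, siRNA-2 array 2 or siRNA-2 array 3, and without replicate 1 in any group (limma adjusted p up to 0.124).

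The last question was whether a siRNA moved these mRNAs between fractions. For the shift, the change in heavy minus light difference from control, 0 of the 51 genes passed with siRNA-1 and 0 with siRNA-2 (limma), as did 0% of all clusters for each. At an unadjusted p under 0.05 siRNA-1 had 2 such genes (1206 among all clusters) and siRNA-2 had 1 (542 among all clusters). The 2 were ZNF12 (0.46, SE 0.20, limma adjusted p = 0.871) and ZNF25 (0.49, SE 0.23, adjusted p = 0.886), and the 1 was ZNF48 (0.41, SE 0.17, adjusted p = 1). For ZNF33B the shift was -0.05 with siRNA-1 (95% interval -0.45 to 0.35) and 0.26 with siRNA-2 (-0.15 to 0.66), and the width of these intervals is what 3 or 4 transfections a group allowed. All alternatives gave 0 for both siRNAs.

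The corepressor genes through which KRAB proteins act mostly had the larger share of the signal in heavy polysomes. Of 24 measured genes of this list, among them TRIM28, the histone methyltransferase SETDB1, heterochromatin proteins, NuRD subunits, DNA methyltransferases and the HUSH complex, 18 were higher in heavy than in light polysomes, 0 lower and 6 did not pass (median 0.46, limma), against 22.4% higher and 20.7% lower for all clusters. Without replicate 1 in any group 17 were higher and 0 lower. TRIM28 had heavy signals of 7.46, 8.02 and 8.12 with siRNA-1, 7.83, 8.17 and 8.80 with siRNA-2, and 7.57, 7.75, 8.57 and 8.33 in control cells. Its light signals were 7.30, 7.26 and 7.07 with siRNA-1, 7.30, 7.60 and 7.22 with siRNA-2, and 7.48, 7.60, 7.12 and 7.30 in control cells. Heavy lay above light in each transfection, least so in siRNA-1 replicate 1 and control replicates 1 and 2, and the mean difference was 0.74 (SE 0.14, limma adjusted p = 0.000572). SETDB1 had -0.17 (SE 0.07, limma adjusted p = 0.0847).

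Some corepressors changed with siRNA-1. CBX1, a heterochromatin protein, fell by 1.16 in heavy (limma adjusted p = 0.000598) and by 0.95 in light polysomes (adjusted p = 0.00255), and TASOR, of the HUSH complex, fell by 0.93 in light polysomes (adjusted p = 0.000559). CHD3, a NuRD helicase, rose by 0.92 in heavy polysomes (limma adjusted p = 0.00159). Not all genes of these complexes changed alike. In light polysomes PPHLN1, also of the HUSH complex, rose by 0.79 (limma adjusted p = 0.00212). RBBP7, also of NuRD, fell there by 0.67 (limma adjusted p = 0.00394). In heavy polysomes 2 of the 24 rose and 2 fell with siRNA-1, against 5.68% and 3.23% of all clusters, and in light polysomes 1 rose and 7 fell, against 5.27% and 6.32%. With siRNA-2, 0 passed in either fraction (limma), and 2 in each had an unadjusted p under 0.05. The siRNA-1 counts were 2 and 2 in heavy and 1 and 5 in light polysomes without replicate 1 in any group. DNMT1, the maintenance DNA methyltransferase, lost its call in heavy polysomes in 7 of 18 settings, without any 1 of siRNA-1 replicates 1, 2 and 4, siRNA-2 replicate 2 and control replicates 2, 3 and 4 (limma adjusted p up to 0.106). In light polysomes 4 of the 24 fell without siRNA-1 replicate 2 and 4 without siRNA-1 replicate 4, the calls of CBX3, DNMT1 and UHRF1 being lost in both. The calls given above for CBX1, TASOR, CHD3, PPHLN1 and RBBP7 were kept in all 18 settings. TRIM28 had -0.19 in heavy and -0.16 in light polysomes with siRNA-1 (limma adjusted p = 0.762 and 0.562), and SETDB1 0.25 and 0.15 (adjusted p = 0.249 and 0.532). The zinc finger genes and these corepressors were measured on the same arrays, and whether the values are linked was not tested.

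Of the 51 genes, 16 passed in none of the 12 comparisons. They were ZNF7, ZNF16, ZNF18, ZNF30, ZNF35, ZNF41, ZNF44, ZNF45, ZNF48, ZNF69, ZNF74, ZNF75A, ZNF79, ZNF80, ZNF81 and ZNF99. The share of all clusters that passed in none was not counted. Of the 51 genes ZNF30 had the widest interval for heavy minus light, with a standard error of 0.15 on the mean of conditions.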

How the data were processed

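The authors deposited a table of log2 expression values for 20 Clariom S arrays, made with the robust multi-array average method (oligo; R 3.5.3 and limma 3.38.3 per the labels' processing notes). Whether the normalization took both fractions at once, and the genome build of the probe annotation, are not given in the sources used here. Relative values within arrays hide any change in total polysomal RNA. Control probe sets (5741) were left out, leaving 21448 clusters. The cluster with the highest mean was kept where a symbol recurred. The siRNA contrasts were fitted within each fraction (10 arrays), and heavy minus light contrasts and shifts on the difference of same-numbered arrays, assumed to be 1 transfection, with lmFit and eBayes (limma 3.58.1, R 4.3.3), Benjamini-Hochberg adjustment over all clusters and a threshold of 0.05. The fits were tested on simulated data. Genes described singly are those with the largest changes that passed, up to 6 per direction, and a list of well-known members. Where few passed, genes that did not pass but had the smallest p were added. Other genes, such as ZNF90, ZNF83 and ZNF8, were described outside this rule. Domain classes and corepressors come from hand-written lists. The members and lists were chosen with earlier results of these data known. Promoters come from RefSeq on GRCh38.p14 and were aligned with Biopython 1.88. Alternatives were other normalizations, array weights, an intensity trend, a filter on means under 5, joint fits and left-out replicates. The number of arrays limits precision.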

Additional observations from a re-analysis of the deposited data

Results flagged for a closer look

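In 6 of 64 control groups of 4 arrays tested, 1 array lay far from the other 3 by Dixon's criterion, and chance flags about 1 in 20 such groups. ZNF25 had 5.88 in control heavy replicate 1, against 5.15 to 5.26 in the other 3. ZNF84 had 8.40 on the same array, against 8.02 to 8.08. ZNF26 had 5.77 in control heavy replicate 2, against 6.22 to 6.26. In control light arrays ZNF28 had 5.73 in replicate 2 (others 6.0 to 6.03), ZNF33A 8.40 in replicate 3 (others 8.51 to 8.53) and ZNF57 8.50 in replicate 1 (others 8.75 to 8.80).

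The effects of the siRNAs differed for 15 genes by the limma test of siRNA-1 minus siRNA-2 itself. How many of all clusters passed it in at least 1 fraction was not counted. In heavy polysomes the differences were 1.24 for ZNF25, 0.84 for ZNF10, 0.81 for ZNF2, 0.72 for ZNF28, 0.67 for ZNF12, 0.56 for ZNF17, 0.56 for ZNF26 and 0.52 for ZNF75D, and of these the ZNF25 call was kept in all 18 alternatives. In light polysomes they were 0.89 for ZNF17, 0.77 for ZNF28, 0.71 for ZNF25, 0.69 for ZNF24, 0.69 for ZNF76, 0.67 for ZNF84, 0.59 for ZNF75D, 0.56 for ZNF3, 0.54 for ZNF23, 0.49 for ZNF8 and 0.49 for ZNF77. The ZNF17, ZNF24, ZNF25 and ZNF28 calls in light polysomes were kept in all 18.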

How the results depend on the processing

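With the replicate block, siRNA-1 gave 15 calls in heavy polysomes (14 higher, the 9 reported among them, and ZNF30 lower at -0.53). Arrays of the same number deviated together (correlation over 0.1) in 6 of 8 heavy and 4 of 8 light pairs. Since not every pair did, the numbers were not taken to pair arrays across siRNAs. The median correlation was 0.34 for heavy pairs of the same number and -0.04 for those of unlike number. In light polysomes the medians were 0.08 and -0.06. Of 10 arrays in each fraction, 7 heavy and 8 light ones correlated best with an array of their own number. A deviation shared by number may therefore be present, and the reported siRNA fits do not model it. Heavy and light arrays of 1 siRNA were subtracted by number, as the design assumed, although only 1 of 10 such pairs deviated together. Without that pairing the heavy minus light counts were 16 for siRNA-1, 14 for siRNA-2, 25 for control and 35 for the mean of conditions. With siRNA-2 in heavy polysomes 1 gene passed without replicate 1 in any group, and between 0 and 2 passed without 1 array at a time, 0 of them without siRNA-2 replicate 2. With siRNA-2 in light polysomes 1 gene passed with all 20 arrays in 1 fit, with the filter on low means, with array weights and with the intensity trend. For siRNA-1 minus siRNA-2 the count was 4 in heavy and 5 in light polysomes without replicate 1 in any group, and 3 to 9 and 6 to 11 without 1 array at a time. Heavy minus light gave 24 calls for siRNA-1 with array weights (2 higher and 22 lower), 6 to 18 for siRNA-2 and 15 to 27 for control without 1 transfection at a time, 12 to 18 for siRNA-1 and 29 to 35 for the mean of conditions. The siRNA-1 counts were 7 to 11 in heavy and 8 to 10 in light polysomes without 1 array at a time. Among genes that did not pass, ZNF41 turned sign for heavy minus light on the mean of conditions with repeated quantile normalization (-0.000549) and without replicate 1 in any group (-0.032). ZNF70 lay between -0.38 and 0.0016 for siRNA-1 minus siRNA-2 in heavy polysomes, and ZNF81 between -0.031 and 0.38 for heavy minus light in control cells, without 1 replicate at a time. The shift gave 0 calls for both siRNAs under every alternative run. Other values near 0 that did not pass also turned sign. ZNF33B for siRNA-1 minus siRNA-2 in heavy polysomes was -0.0096 with the replicate block, -0.024 with repeated quantile normalization, -0.023 with arrays centred on their medians, -0.022 with array weights and -0.00066 without replicate 1 in any group. ZNF18 for heavy minus light on the mean of conditions was 0.044 with repeated quantile normalization, 0.022 with centred arrays and 0.0045 with array weights. ZNF28 with siRNA-2 in light polysomes was 0.015 with repeated quantile normalization and 0.027 without replicate 1 in any group, where ZNF22 with siRNA-1 in heavy polysomes was 0.049. Without 1 replicate at a time ZNF33B ran from -0.051 to 0.057, ZNF18 from -0.086 to 0.049, ZNF28 from -0.12 to 0.081 and ZNF22 from -0.13 to 0.024 in these comparisons. ZNF37A with siRNA-1 ran from -0.022 to 0.32 in heavy polysomes, ZNF32 and ZNF26 with siRNA-2 from -0.20 to 0.028 and from -0.047 to 0.16, and the ZNF33B shift with siRNA-1 from -0.23 to 0.064. The cause of these changes was not tested.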
